A study of Rattus norvegicus with 22 samples.

Results

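The cytochrome P450 genes of families 1 to 4 were taken as every gene whose only symbol in the platform annotation is Cyp, a digit from 1 to 4, a lower-case letter and a number. The rule found 49 genes among the 18166 genes measured. Family 1 held 2 of them, family 2 held 31, family 3 held 4 and family 4 held 12. Each gene was read from the probe set with the highest mean over all arrays. The livers came from female Crl:CD(SD) rats, an outbred Sprague-Dawley stock, labelled as 12 weeks old in the sample characteristics and as 10 to 14 weeks old in the growth protocol. The treated group was 10 rats given 1 intraperitoneal dose of 50 mg/kg GSK932121A, an inhibitor of complex III of the mitochondrial respiratory chain, with 5 h of treatment per the labels. The vehicle group was 12 rats given the same volume (10 mL/kg) of the mannitol, hydroxypropylmethylcellulose and sodium dodecyl sulphate vehicle without the compound (0 mg/kg), and the time of their sampling was not given in the sources used here. A further 2 dosed rats had been left out by the submitters for low plasma exposure. Each array held RNA of the median lobe of 1 rat, so the spread within a group is a spread between animals.

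P450s are heme enzymes of the endoplasmic reticulum that insert an oxygen atom into drugs, steroids, fatty acids and vitamins, using electrons that P450 reductase passes on from NADPH. Families 1 to 3 carry most drug and steroid oxidation in the liver, and family 4 hydroxylates fatty acids and eicosanoids at their far end. Transcription of many of these genes is driven by ligand-activated receptors: the aryl hydrocarbon receptor for family 1, the constitutive androstane receptor (CAR) for the CYP2B genes, the pregnane X receptor (PXR) for the CYP3A genes, and PPAR-alpha for the CYP4A genes. In the rat, several CYP2A, CYP2C and CYP3A genes are also expressed in a sex-specific way set by the pattern of growth hormone secretion.

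Values are log2 expression values from RMA. They can be compared between animals for 1 probe set, but not between probe sets. The array medians ran from 4.73 to 4.85, and pairs of arrays correlated between 0.971 and 0.99 over the probe sets kept as 1 per gene. Hepatocyte markers were compared between the groups, which does not check the tissue label itself. The 6 measured hepatocyte markers had a mean level, relative to the vehicle mean, of -0.13 to 0.10 in GSK932121A livers and of -0.10 to 0.06 in vehicle livers. By limma 0 of these 6 passed, and 0 had an unadjusted p under 0.05.

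Among the P450 genes 5 fell in GSK932121A livers: Cyp3a73, Cyp3a18, Cyp2r1, Cyp2d5 and Cyp4f4. The other 44 did not pass the test, and 0 rose. The 5 falls make 10.2% of the 49 genes, against a background of 7.05% of all 18166 genes that fell (1280 genes by limma, Benjamini-Hochberg adjusted p under 0.05). For rises the count was 0 of 49 against a background of 5.31% (964 genes). At an unadjusted p under 0.05 in limma, 1 P450 gene was higher and 9 were lower, against 1831 and 2523 of all 18166 genes. There were 0 P450 rises in limma with other settings or by the Welch and Wilcoxon tests. Calls in either direction came to 12.4% of all genes, and the share of P450 genes called in either direction, all of them falls, was no larger. For falls alone the P450 share was above the background by a few genes, which was not tested. In liver RNA, fewer cells of a type and less RNA per cell cannot be told apart.

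The median log2 difference (GSK932121A minus vehicle) was -0.10 over the 49 genes and -0.01 over all genes, and 63.3% of the P450 genes lay below 0 against 52.4% of all genes. The differences ran from -1.14 for Cyp3a73 to 0.25 for Cyp2c22. For 40 of the 49 genes (81.6%) the 95% interval of the difference lay within a 1.5-fold change in either direction, a smaller share than the 92.2% of all genes. The genes whose intervals reached beyond a 1.5-fold change were Cyp3a73, Cyp3a18, Cyp2d5, Cyp4f4, Cyp2a2, Cyp2b1, Cyp2b2, Cyp2c13 and Cyp2f4.

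Signal level entered these counts. The probe sets of 16 P450 genes had means below the array medians, where RMA compresses differences, and 0 of these 16 passed. Among the 33 brighter genes 5 fell (15.2%) and 25 lay below 0 (75.8%), with a median of -0.13. Over the 11449 genes of all kinds at or above the array medians, 10.6% fell, 57.1% lay below 0 and the median was -0.03. The ranges of the groups overlapped for each of the 49 P450 genes. Over all genes, 0.281% had every GSK932121A value below every vehicle value and 0.457% had every one above. A count of 0 in 49 genes is near these shares, so it does not set the P450 genes apart.

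**Figure D1:**
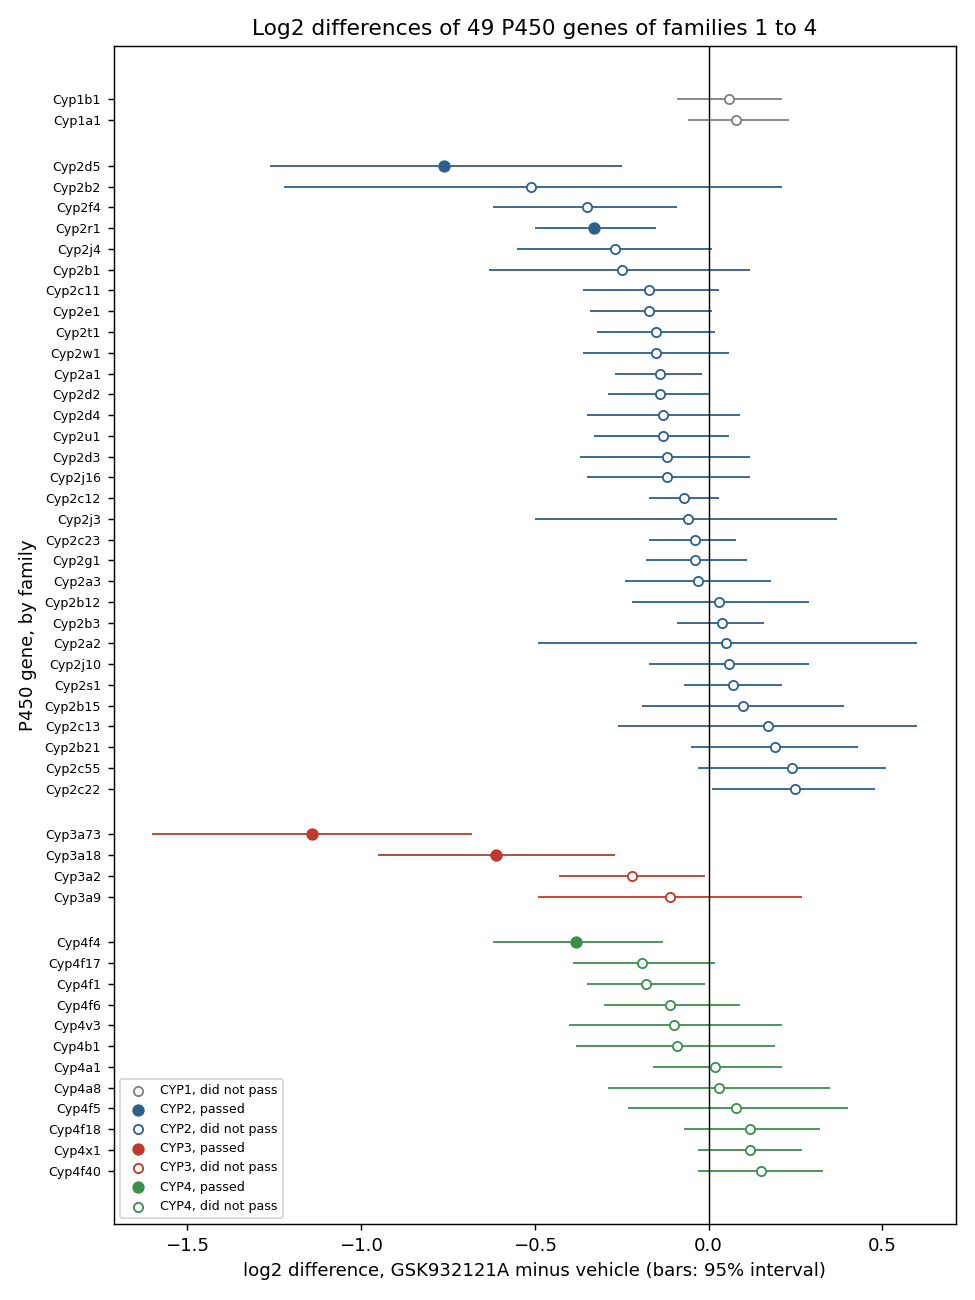
Log2 difference of each of the 49 P450 genes (GSK932121A minus vehicle, horizontal axis, with 95% interval), ordered within families 1 to 4. The 5 genes that passed in limma all lie below 0, with Cyp3a73 farthest at -1.14, and most of the other intervals cross 0.

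The CYP3A genes oxidise many drugs and hydroxylate testosterone. Of the 4 measured members Cyp3a73 and Cyp3a18 fell, and Cyp3a9 and Cyp3a2 did not pass. The family median difference was -0.41, against -0.12 in family 2, -0.03 in family 4 and 0.07 in family 1. These medians rest on very unequal numbers of genes and are given as a description.

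Cyp3a73, a CYP3A gene of the rat, showed the largest fall. Its log2 values had a lowest, median and highest of 4.84, 5.19 and 6.04 in GSK932121A livers, against 5.38, 6.62 and 7.86 in vehicle livers. All 10 GSK932121A livers lay below the vehicle median and 6 lay below the lowest vehicle liver, so the groups overlapped in part. The mean was 5.37 ± 0.48 (SD, n = 10) in GSK932121A livers and 6.51 ± 0.65 (SD, n = 12) in vehicle livers. The difference was -1.14 ± 0.22 (SE), a 2.21-fold fall (limma adjusted p = 0.000824). It was the only P450 gene that also passed a limma test against a 1.2-fold change (adjusted p = 0.0202). Vehicle livers spread widely for this gene, over a 5.57-fold range from the lowest to the highest, and GSK932121A livers over a 2.31-fold range.

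Cyp3a18 encodes a testosterone hydroxylase that is more abundant in male than in female rats. Its values ran from 5.51 through a median of 5.80 to 6.83 in GSK932121A livers, and from 5.62 through 6.48 to 7.53 in vehicle livers. Among the GSK932121A livers 9 of 10 lay below the vehicle median, and replicate 18, at 6.83, stood above the others, the next of which was 6.04. The means were 5.88 ± 0.37 (SD, n = 10) in GSK932121A livers and 6.49 ± 0.47 (SD, n = 12) in vehicle livers, a 1.53-fold fall (log2 difference -0.61 ± 0.17 SE, limma adjusted p = 0.0145).

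Cyp3a9, a CYP3A gene that is more abundant in female than in male rat liver, had values of 9.46, 10.04 and 10.63 (lowest, median, highest) in GSK932121A livers and 9.00, 10.07 and 11.07 in vehicle livers. The GSK932121A values lay inside the vehicle range. The log2 difference was -0.11 with a 95% interval from -0.49 to 0.27 (limma adjusted p = 0.784). Cyp3a2, the male-predominant drug- and testosterone-oxidising CYP3A of the rat, was dim in these female livers, with values of 1.77, 2.09 and 2.55 in GSK932121A livers and 2.09, 2.23 and 2.94 in vehicle livers. Its difference of -0.22 had an unadjusted p of 0.0378 and did not pass in limma (adjusted p = 0.175). A family that is close in sequence can share probes, so the CYP3A probe sets may read each other's transcripts, which was not tested.

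The promoters of Cyp3a18, Cyp3a9 and Cyp3a2 are shown because these genes of chromosome 12 share sequence while only Cyp3a18 of them passed. Each had a difference below 0, and a difference between the genes was not tested. A further reason is that PXR, whose message was higher in GSK932121A livers, binds repeats of the hexamer AGTTCA in CYP3A promoters. Each line gives the 250 bases before the annotated start (RefSeq, build GRCr8, 5′ to 3′ on the gene's strand). Capitals mark AGTTCA or its reverse complement TGAACT.
Cyp3a18, chr12:13994062-13994311, plus strand: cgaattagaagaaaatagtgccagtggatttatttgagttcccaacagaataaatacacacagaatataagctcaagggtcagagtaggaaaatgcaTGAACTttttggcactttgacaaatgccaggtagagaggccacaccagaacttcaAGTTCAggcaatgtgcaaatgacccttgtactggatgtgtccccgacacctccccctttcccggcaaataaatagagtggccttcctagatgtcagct
Cyp3a9, chr12:21960161-21960410, minus strand: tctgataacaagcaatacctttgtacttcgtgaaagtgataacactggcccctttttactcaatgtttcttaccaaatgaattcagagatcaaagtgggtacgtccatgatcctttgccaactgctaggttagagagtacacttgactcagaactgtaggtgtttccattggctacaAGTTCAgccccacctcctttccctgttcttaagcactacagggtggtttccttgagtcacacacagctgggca
Cyp3a2, chr12:14343858-14344107, minus strand: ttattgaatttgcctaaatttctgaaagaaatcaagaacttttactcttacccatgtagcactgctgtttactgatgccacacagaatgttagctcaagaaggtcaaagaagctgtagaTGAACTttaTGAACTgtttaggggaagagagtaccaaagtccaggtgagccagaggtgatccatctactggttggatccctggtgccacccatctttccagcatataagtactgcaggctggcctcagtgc

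The hexamer occurred 2 times before Cyp3a18, beginning 153 and 98 bases before the start. It occurred 1 time before Cyp3a9, beginning 73 bases before the start, and 2 times before Cyp3a2, beginning 131 and 122 bases before it. The letters were searched on both strands, and 12.2% of 33469 rat promoters of this length hold at least 1 copy. Of the 43 P450 genes with a promoter in the RefSeq table, 8 held it: Cyp2c12, Cyp2c13, Cyp2g1, Cyp2j3, Cyp2j4 and the 3 CYP3A genes above. For Cyp3a73 the table lists 5 starts, and 0 of the 5 windows held these letters. Over the aligned bases Cyp3a18 was 66.0% identical to Cyp3a9 and 63.6% identical to Cyp3a2, and Cyp3a9 was 67.3% identical to Cyp3a2. Cyp3a18, which fell, and Cyp3a9, which did not pass, each held at least 1 copy. The 2 copies before Cyp3a2 read in the same direction with the letters tta between them, and the 2 before Cyp3a18 read in opposite directions. Copies were counted singly, and their spacing as repeats was not compared with other promoters. A part of PXR in these outcomes was not tested.

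**Figure D2:**
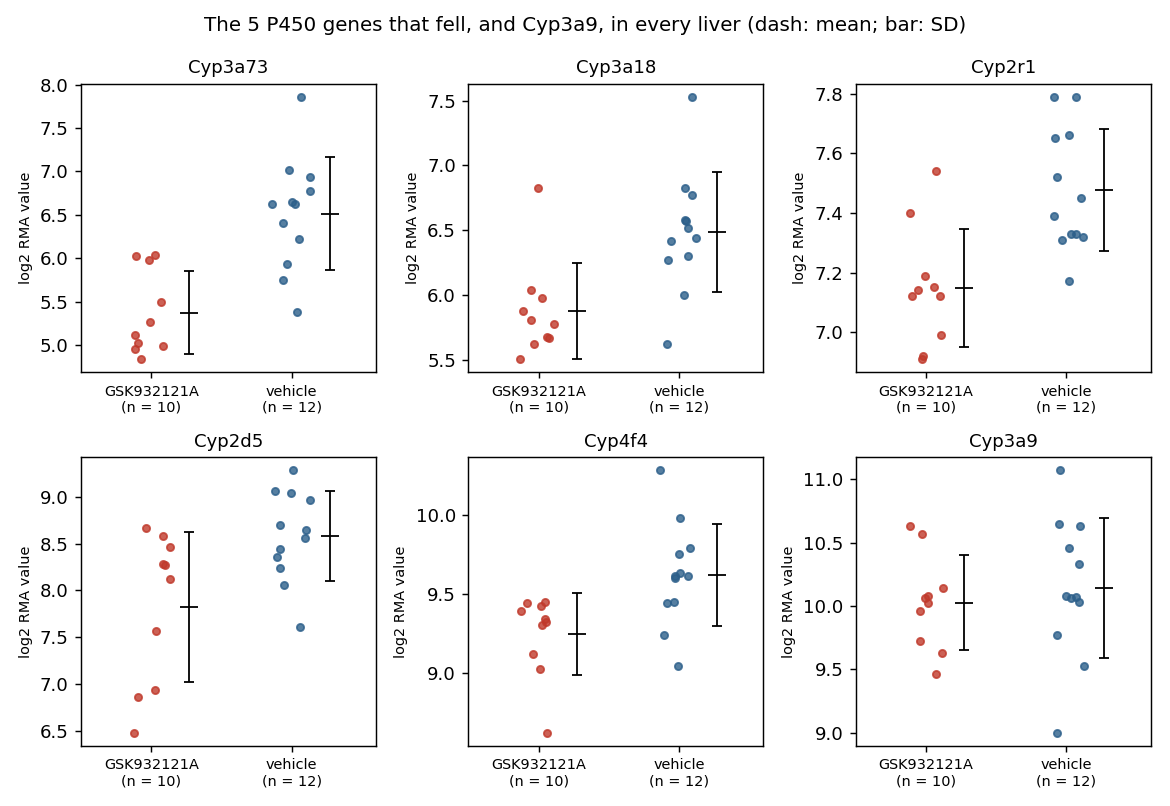
Log2 RMA values (vertical axis) of the 5 P450 genes that fell, with 1 point per liver, GSK932121A (n = 10) left of vehicle (n = 12), a dash for the mean and a bar for the SD. The groups overlap for each gene, and the 10 GSK932121A livers lie lowest relative to vehicle for Cyp3a73.

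In family 2 Cyp2r1 and Cyp2d5 fell, which is 6.45% of its 31 genes and close to the background for falls. Cyp2r1, the microsomal vitamin D 25-hydroxylase, had values of 6.91, 7.13 and 7.54 (lowest, median, highest) in GSK932121A livers and 7.17, 7.42 and 7.79 in vehicle livers. Of the GSK932121A livers 7 lay below the lowest vehicle liver, more than for any other P450 gene that fell. The means were 7.15 ± 0.20 (SD, n = 10) in GSK932121A livers and 7.48 ± 0.20 (SD, n = 12) in vehicle livers. The fall was small, 1.25-fold (log2 difference -0.33 ± 0.09 SE, limma adjusted p = 0.0113).

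Cyp2d5 belongs to the CYP2D group, whose members oxidise many basic drugs. Its values were 6.48, 8.20 and 8.67 (lowest, median, highest) in GSK932121A livers and 7.61, 8.60 and 9.28 in vehicle livers. GSK932121A replicates 23, 14 and 18 were low, at 6.48, 6.86 and 6.94, while the other GSK932121A livers lay at 7.57 or above and mostly inside the vehicle range. The means were 7.82 ± 0.80 (SD, n = 10) in GSK932121A livers and 8.58 ± 0.48 (SD, n = 12) in vehicle livers, a 1.69-fold fall (log2 difference -0.76 ± 0.25 SE, limma adjusted p = 0.0421). Omission of 1 array ended the call for 12 of the 22 arrays, GSK932121A replicates 14, 17, 18 and 23 and vehicle replicates 1, 4, 5, 6, 8, 9, 11 and 12 (limma adjusted p of up to 0.09, without GSK932121A replicate 14), as did 6 of the other settings run. The other CYP2D genes did not pass: the difference was -0.14 for Cyp2d2, the debrisoquine hydroxylase of the rat, -0.12 for Cyp2d3 and -0.13 for Cyp2d4.

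The CYP2C genes include the main sex-specific P450s of rat liver. Cyp2c12, the female-specific steroid sulfate hydroxylase, had values of 12.70, 12.85 and 12.95 (lowest, median, highest) in GSK932121A livers and 12.74, 12.94 and 12.98 in vehicle livers. Cyp2c23, an arachidonic acid epoxygenase, had values of 12.53, 12.62 and 12.83 in GSK932121A livers and 12.47, 12.73 and 12.83 in vehicle livers. Neither passed, and both were tightly bounded: the 95% interval of the log2 difference ran from -0.17 to 0.03 for Cyp2c12 (limma adjusted p = 0.384) and from -0.17 to 0.08 for Cyp2c23 (limma adjusted p = 0.712). Such bright probe sets lie near the top of the measured range of 0.67 to 13.8, where an array can saturate.

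Cyp2c22, a CYP2C gene of the liver, had the highest difference of the 49 genes, at 0.25. Its values were 11.47, 12.04 and 12.32 in GSK932121A livers and 11.26, 11.80 and 12.26 in vehicle livers. The groups overlapped over nearly their whole ranges, and the gene did not pass in limma (unadjusted p = 0.0415, adjusted p = 0.185). The male-specific genes Cyp2c11 and Cyp2c13 did not pass in these female livers, with means for Cyp2c11 of 3.91 ± 0.20 (SD, n = 10) in GSK932121A livers and 4.08 ± 0.24 (SD, n = 12) in vehicle livers. Cyp2c13 averaged 5.24 ± 0.56 (SD, n = 10) in GSK932121A livers and 5.07 ± 0.52 (SD, n = 12) in vehicle livers. Cyp2c55 had a difference of 0.24 (limma adjusted p = 0.271).

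The CYP2B genes are the classic targets of CAR and of phenobarbital. Cyp2b2 varied more between animals than any other P450 gene in the GSK932121A group, with values of 5.28, 6.91 and 8.69 (lowest, median, highest) in GSK932121A livers and 5.89, 7.82 and 8.70 in vehicle livers. That is a 10.6-fold range among GSK932121A livers and a 7.02-fold range among vehicle livers. The means were 6.97 ± 1.0 (SD, n = 10) in GSK932121A livers and 7.48 ± 0.83 (SD, n = 12) in vehicle livers, and the difference of -0.51 had a 95% interval from -1.22 to 0.21 (limma adjusted p = 0.408). Cyp2b1, its close relative, was dim, at 2.37, 3.14 and 4.63 in GSK932121A livers and 3.10, 3.29 and 4.15 in vehicle livers, and did not pass (log2 difference -0.25, limma adjusted p = 0.43). Its GSK932121A replicate 21 stood apart at 4.63, and without that liver Cyp2b1 passed (limma adjusted p = 0.0377). The other CYP2B genes (Cyp2b3, Cyp2b12, Cyp2b15 and Cyp2b21) did not pass, with differences of 0.03 to 0.19.

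The remaining family 2 genes did not pass. Cyp2e1, which oxidises ethanol and paracetamol, had values of 10.82, 11.15 and 11.39 in GSK932121A livers and 10.97, 11.27 and 11.57 in vehicle livers, with a difference of -0.17 and a 95% interval from -0.34 to 0.01 (limma adjusted p = 0.228). Cyp2a1, a testosterone 7-alpha-hydroxylase, averaged 11.09 ± 0.17 (SD, n = 10) in GSK932121A livers and 11.23 ± 0.08 (SD, n = 12) in vehicle livers (log2 difference -0.14, limma adjusted p = 0.15). The male-specific Cyp2a2 spread over a 7.74-fold range among vehicle livers and a 3.51-fold range among GSK932121A livers around nearly equal means (log2 difference 0.05). Cyp2f4, best known from the lung, where it oxidises naphthalene, came closest to the threshold without passing. It averaged 5.25 ± 0.43 (SD, n = 10) in GSK932121A livers and 5.6 ± 0.20 (SD, n = 12) in vehicle livers (log2 difference -0.35, limma adjusted p = 0.0719), and it passed without GSK932121A replicate 21 (limma adjusted p = 0.0259) or 20. The epoxygenases of the CYP2J group did not pass either, with -0.27 for Cyp2j4 and -0.06 for Cyp2j3.

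In family 4 only Cyp4f4 passed, which is 8.33% of 12 genes and close to the background for falls. Cyp4f4 belongs to the CYP4F group, which hydroxylates leukotriene B4 and arachidonic acid. Its values were 8.62, 9.33 and 9.45 (lowest, median, highest) in GSK932121A livers and 9.04, 9.61 and 10.28 in vehicle livers. All 10 GSK932121A livers lay below the vehicle median, but only 2 lay below the lowest vehicle liver. The means were 9.24 ± 0.26 (SD, n = 10) in GSK932121A livers and 9.62 ± 0.32 (SD, n = 12) in vehicle livers, a 1.30-fold fall (log2 difference -0.38 ± 0.12 SE, limma adjusted p = 0.0362). Omission of 1 array ended the call for 7 of the 22 arrays, GSK932121A replicates 13, 17 and 22 and vehicle replicates 1, 2, 4 and 12 (limma adjusted p of up to 0.0799, without GSK932121A replicate 13), as did 3 of the other settings run.

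Cyp4a1, the fatty acid omega-hydroxylase that PPAR-alpha induces, had values of 11.27, 11.57 and 11.85 (lowest, median, highest) in GSK932121A livers and 10.95, 11.63 and 11.82 in vehicle livers. The groups overlapped almost wholly, and the difference of 0.02 had a 95% interval from -0.16 to 0.21 (limma adjusted p = 0.909). Cyp4f1, another leukotriene hydroxylase, had values of 11.38, 11.83 and 11.92 in GSK932121A livers and 11.68, 11.91 and 12.26 in vehicle livers, and did not pass (log2 difference -0.18, unadjusted p = 0.0344, limma adjusted p = 0.165). Cyp4v3 had values of 9.97, 10.81 and 11.25 in GSK932121A livers and 9.88, 10.91 and 11.27 in vehicle livers (log2 difference -0.10, limma adjusted p = 0.76). The other CYP4F genes did not share a direction: Cyp4f17 stood at -0.19 and Cyp4f6 at -0.11, whereas Cyp4f40 stood at 0.15, Cyp4f18 at 0.12 and Cyp4f5 at 0.08, and none of these passed. Of the 12 genes of family 4, 6 lay below 0 and 6 above.

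Both measured genes of family 1 were dim and neither passed. Cyp1a1, the aryl hydrocarbon hydroxylase and the most used readout of the aryl hydrocarbon receptor, had values of 4.12, 4.48 and 4.67 (lowest, median, highest) in GSK932121A livers and 4.06, 4.37 and 4.63 in vehicle livers. Cyp1b1, which hydroxylates oestradiol, had values of 3.04, 3.22 and 3.48 in GSK932121A livers and 2.85, 3.14 and 3.50 in vehicle livers. The groups overlapped throughout. The differences were 0.08 (95% interval from -0.06 to 0.23, limma adjusted p = 0.498) and 0.06 (95% interval from -0.09 to 0.21, limma adjusted p = 0.701). Cyp1a2, the constitutive family 1 gene of the liver, was not analysed here.

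Averaging the members of a family within each liver, relative to the vehicle mean, set the families side by side. Family 3 averaged -0.52 ± 0.18 (SD) over the 10 GSK932121A livers, from -0.76 to -0.28, and vehicle livers ran from -0.34 to 0.34 with an SD of 0.23. In this family 8 of the 10 GSK932121A livers lay below the lowest vehicle liver, against 5 in family 2, 2 in family 4 and 1 in family 1. Family 2 averaged -0.09 ± 0.09 over GSK932121A livers (vehicle livers from -0.13 to 0.12), family 4 averaged -0.04 ± 0.11 (vehicle livers from -0.16 to 0.10) and family 1 averaged 0.07 ± 0.11 (vehicle livers from -0.15 to 0.12). With 4 genes, family 3 is carried by Cyp3a73 and Cyp3a18, and no test was made of a family as a whole.

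**Figure D3:**
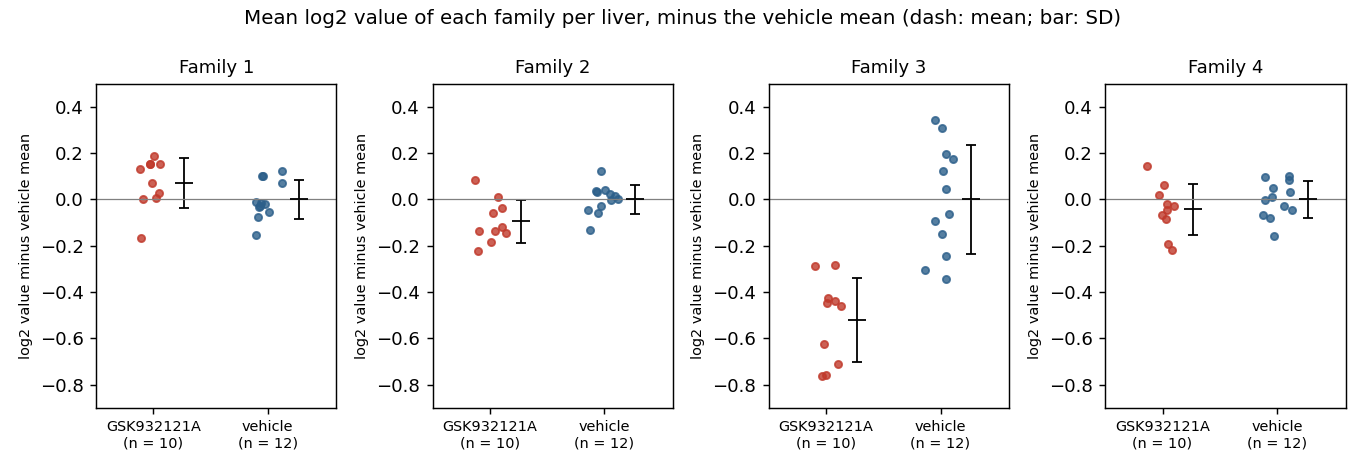
Mean of each P450 family in each liver, as the log2 difference from that family's vehicle mean (vertical axis), with GSK932121A (n = 10) left of vehicle (n = 12), a dash for the mean and a bar for the SD. Family 3 livers lie lowest after GSK932121A, at -0.76 to -0.28, and the other families lie near 0.

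Among 12 measured genes that supply P450s with electrons and heme, Por rose, Cyb5a, Cyb5b and Fech fell, and the other 8 did not pass. These 4 calls stand beside the background of 12.4% of all genes called in either direction, and the median difference of the 12 was -0.20. Por, the P450 reductase, had values of 9.56, 9.88 and 10.54 (lowest, median, highest) in GSK932121A livers and 8.18, 8.82 and 10.31 in vehicle livers. A single vehicle liver, replicate 4, reached 10.31 and the next lay at 9.70, inside the GSK932121A range. The rise was 2.18-fold (10.04 ± 0.38 in GSK932121A livers, n = 10, and 8.91 ± 0.60 in vehicle livers, n = 12, SD; log2 difference 1.12 ± 0.20 SE, limma adjusted p = 0.000304). Among the 49 P450 genes 0 rose, beside 5.31% of all genes, a difference of a few genes that was not tested.

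Fech, which puts iron into heme, fell 1.25-fold (7.89 ± 0.11 in GSK932121A livers, n = 10, and 8.21 ± 0.16 in vehicle livers, n = 12, SD; limma adjusted p = 0.00154). The cytochrome b5 genes, whose proteins pass electrons to some P450s, also fell: Cyb5b 1.22-fold (limma adjusted p = 0.0149) and Cyb5a 1.17-fold (limma adjusted p = 0.0258, a call lost without GSK932121A replicate 13, at 0.0554, and with cyclic loess, at 0.0676). In the list of 4 heme breakdown genes Hmox1 rose, beside 5.31% of all genes. Hmox1, heme oxygenase 1, which degrades heme, averaged 7.77 ± 0.73 (SD, n = 10) in GSK932121A livers and 6.62 ± 0.37 (SD, n = 12) in vehicle livers, a 2.22-fold rise (limma adjusted p = 0.000573), and 9 of 10 GSK932121A livers lay above the highest vehicle liver.

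Of 13 receptors and related factors that regulate P450 genes, 3 rose and 2 fell, with a median of 0.03. Over all genes 5.31% rose and 7.05% fell. Nr1i2, which encodes PXR, averaged 9.38 ± 0.16 (SD, n = 10) in GSK932121A livers and 8.83 ± 0.28 (SD, n = 12) in vehicle livers, a 1.47-fold rise (limma adjusted p = 0.000265), and 8 of 10 GSK932121A livers lay above every vehicle liver. Nr1i3, which encodes CAR, averaged 4.91 ± 0.45 (SD, n = 10) in GSK932121A livers and 5.49 ± 0.30 (SD, n = 12) in vehicle livers, a 1.5-fold fall (limma adjusted p = 0.00851), and 6 of 10 lay below every vehicle liver. The messages of these 2 xenobiotic receptors thus moved in opposite directions. Nr3c1, the glucocorticoid receptor, rose 1.5-fold (limma adjusted p = 9.18e-05) and Ppard rose 1.41-fold (limma adjusted p = 0.00999). Rxrb, a heterodimer partner of PXR and CAR, fell 1.17-fold (limma adjusted p = 0.0104). Its relative Rxra did not pass (log2 difference 0.04, limma adjusted p = 0.791). Ppara, the regulator of the CYP4A genes, had a difference of 0.02 (limma adjusted p = 0.962), and Ahr one of 0.26 (limma adjusted p = 0.0523).

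**Figure D4:**
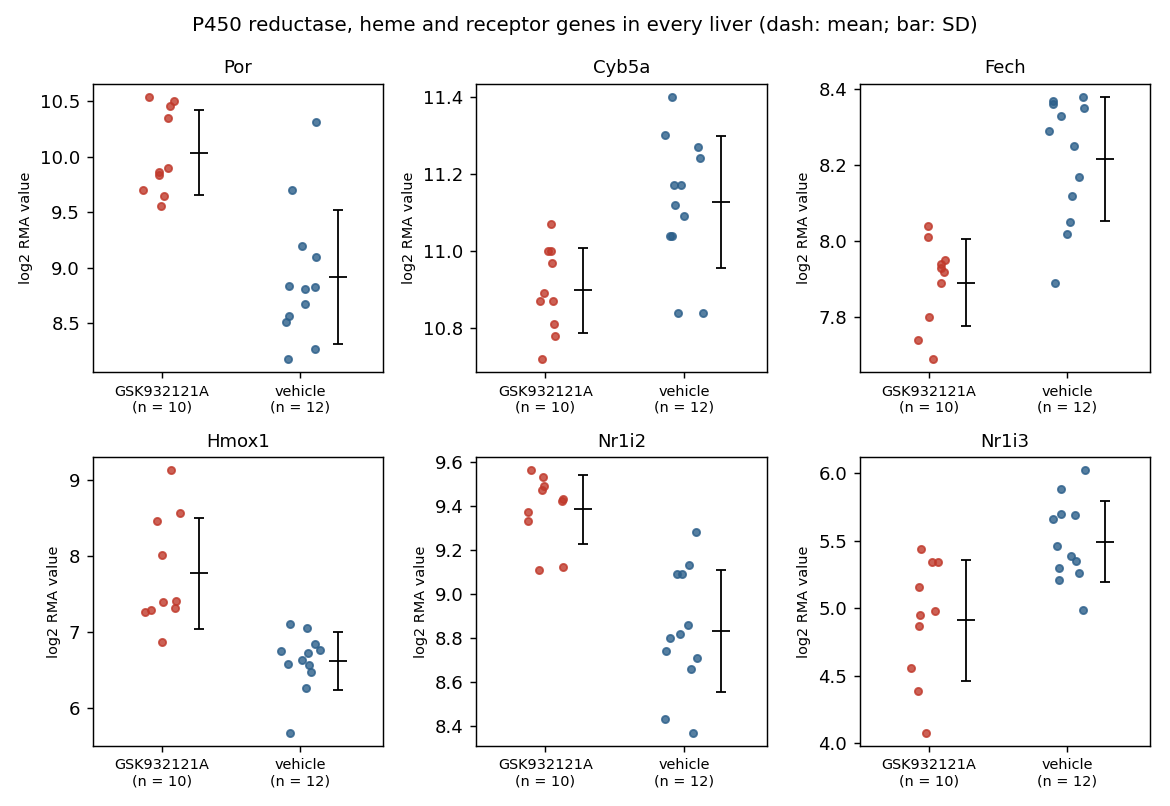
Log2 RMA values (vertical axis, its own scale in each panel) of Por, Cyb5a, Fech, Hmox1, Nr1i2 and Nr1i3, with 1 point per liver, GSK932121A (n = 10) left of vehicle (n = 12), a dash for the mean and a bar for the SD. Por, Hmox1 and Nr1i2 lie higher in GSK932121A livers, and Cyb5a, Fech and Nr1i3 lie lower.

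The spread between animals was compared as a measure apart from the mean. Among the 49 P450 genes the SD was larger in GSK932121A livers for 22 (44.9%) and larger in vehicle livers for 27, against 50.9% larger in GSK932121A livers over all genes. The median SD of the P450 genes was 0.24 in GSK932121A livers and 0.27 in vehicle livers, and that of all genes was 0.20 in each group. In a limma fit of absolute deviations from the group median, 0 P450 genes were wider and 0 narrower, against backgrounds of 0.0771% and 0.0% of all genes. At an unadjusted p under 0.05 in this fit there were 3. Cyp2c55 and Cyp2a1 were wider in GSK932121A livers and Cyp2a3 was narrower. The matching count over all genes was not made, so these 3 are not read as a result about the P450 genes. This test found few differences on simulated data (2% of genes with an SD ratio of 4), so its counts say little about equal spread.

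**Figure D5:**
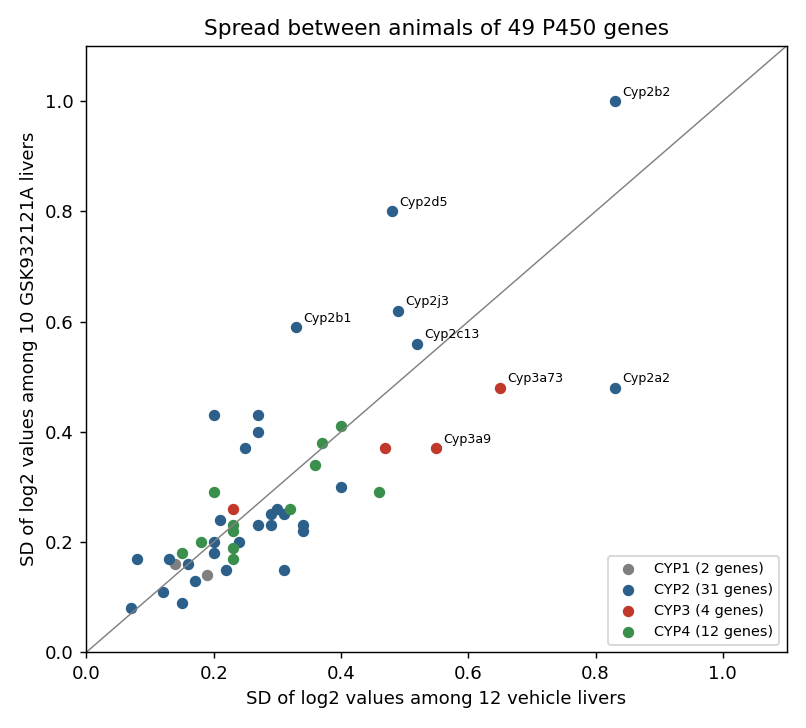
SD of log2 values among 10 GSK932121A livers (vertical axis) against that among 12 vehicle livers (horizontal axis) for the 49 P450 genes, with the line of equality. Points fall on both sides of the line, 22 above it and 27 below, and Cyp2b2 and Cyp2d5 have the largest SDs in GSK932121A livers, 1.0 and 0.80.

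Markers of other cells were measured too, against a background of 5.31% of all genes that rose. Of 8 Kupffer cell markers Cd163 rose 1.28-fold (limma adjusted p = 0.00461), of 3 sinusoidal endothelial markers Lyve1 rose 1.16-fold (limma adjusted p = 0.0201) and of 6 cholangiocyte markers Cldn4 rose 1.24-fold (limma adjusted p = 0.015). Mean Kupffer marker levels ran from -0.14 to 0.33 in GSK932121A livers and from -0.27 to 0.37 in vehicle livers. None of 7 stellate cell, 6 lymphocyte, 6 neutrophil, 2 red cell or 4 gut and kidney markers passed in limma. An unadjusted p under 0.05 in limma was found for 2 of the lymphocyte markers, and for 4354 of all 18166 genes. The part of these cells in the P450 values was not tested.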

How the data were processed

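The deposited values are log2 expression values made by RMA, per the submitters' processing notes. Which software ran it is not given in the sources used here. RMA normalises between arrays, which removes any shift common to all genes, and dim probe sets are compressed. Of 36685 probe sets, 18511 had 1 symbol, 575 had several and 17599 had none, and 18166 genes remained after the probe set with the highest mean was kept for each gene. Arrays give no molecule counts, and precision rests on how many there are. Of all pairs of arrays, 0 were identical.

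Groups were compared with limma 3.58.1 (R 4.3.3; lmFit and eBayes, group alone, no trend, not robust), with Benjamini-Hochberg adjustment over all 18166 genes and a threshold of 0.05. On simulated data with these genes the test recovered 32.8% of 67 genes changed 1.2-fold, 95.5% of 67 at 1.5-fold and 100% of 66 at 2-fold. The simulated SD of each gene was the same in both groups. In the data far more genes were called (12.4%), so these recoveries need not hold there. Labels give no batch or pairing. Any P450 could be named. Ranges per group were given for those that passed and for the 3 with the highest mean in each family, and for some others. From other lists, up to 5 genes that passed were named, and Ppara, Ahr and Rxra were added after their values were seen. Members and lists were chosen with earlier results of these data known. Alternatives covered scaling, filters, probe set choice, other tests and leaving out each array. Promoters were read from a RefSeq table (GRCr8) and aligned with Biopython 1.88.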

Additional observations from a re-analysis of the deposited data

Results flagged for a closer look

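Among the 49 P450 genes, 6 had a GSK932121A liver whose gap to the nearest other liver was a large part of the group's range (above Dixon's 95% critical value for 10 samples). Chance gives about 1 in 20 groups such a gap. The same gap was found in 6.06% of all 18166 genes (1101 genes), against 12.2% of the P450 genes, a difference of a few genes that was not tested. Cyp3a18 had a gap of 0.604 of the range, with replicate 18 highest at 6.83 and the next liver at 6.04, and without replicate 18 the fall of Cyp3a18 had a limma adjusted p of 0.00205. In Cyp4f4 the gap was 0.482, with replicate 13 lowest at 8.62 and the next at 9.02. The gap in Cyp2b1 was 0.566, with replicate 21 highest at 4.63 and the next at 3.35. Cyp2t1 had a gap of 0.569 (replicate 14 highest at 9.28, next 8.97), Cyp2w1 one of 0.566 (replicate 13 highest at 5.37, next 4.93) and Cyp4x1 one of 0.468 (replicate 16 lowest at 3.26, next 3.61).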

How the results depend on the processing

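Leaving out each array in turn gave 842 to 1025 genes higher and 1012 to 1361 lower, and 3 to 7 P450 genes lower. For the P450 genes this was 3 on omitting GSK932121A replicate 17 or vehicle replicate 1, 4 or 12, then 6 without GSK932121A replicate 20 and 7 without GSK932121A replicate 21. It was 3 of 49 with cyclic loess and with the Welch test, 3 of 21 at a mean of at least 7 (14.3%, against 17.3% of all genes there), and 1 against a 1.2-fold change. At a mean of at least 5 it was 6 of 31 (19.4%, against 13.7%), with Cyp2f4 added. Over all genes, 491 were higher and 726 lower at a mean of at least 7, and 230 and 83 against a 1.2-fold change. The number of P450 genes called higher was 0 in every setting run. Cyp3a73 passed in each setting that tested it (a mean of at least 7 leaves it out) and with each array left out (limma adjusted p of 0.000197 to 0.00223). Cyp3a18 and Cyp2r1 were lost only against a 1.2-fold change (adjusted p = 0.638 and 1.0). Cyp2d5 was also lost with cyclic loess (0.0563), an intensity trend (0.0696), array weights (0.0696), the Welch test (0.118) and the Wilcoxon test (0.139), and Cyp4f4 with cyclic loess (0.0551) and the Welch test (0.0569). Of 30 called genes examined from the other lists, 21 lost their call against a 1.2-fold change, Onecut1, Cyb5a, Cyb5b, Fech, Nr1i2, Nr1i3 and Cyp7a1 among them, while Por and Hmox1 kept it. The cause was not tested. The median shift of all genes ran from -0.055 to 0.001, and 0 calls of named genes changed direction. No paired analysis was possible because the groups share no replicate numbers.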

Other observations

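P450 genes of families 5 and above, which act mainly on sterols, bile acids and vitamins, were measured beside families 1 to 4. Of 19 genes 1 rose and 0 fell in limma, beside 5.31% and 7.05% of all genes. At an unadjusted p under 0.05 in limma, 2 were lower and 2 higher, against 2523 and 1831 of all 18166 genes. The rise was Cyp7a1, the rate-limiting enzyme of bile acid synthesis, at 11.58 ± 0.22 (SD, n = 10) in GSK932121A livers and 11.05 ± 0.46 (SD, n = 12) in vehicle livers, or 1.44-fold (limma adjusted p = 0.0161). The Wilcoxon test did not call it.

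Several probe sets of families 1 to 4 carry 2 symbols or a symbol outside the rule. In a fit of all 36685 probe sets, added after seeing the data, the probe set for Cyp2d1 and Cyp2d5 averaged 10.67 ± 0.23 (SD, n = 10) in GSK932121A livers and 10.96 ± 0.15 (SD, n = 12) in vehicle livers, a 1.22-fold fall (limma adjusted p = 0.0427). The probe set for Cyp3a23-3a1, the PXR-inducible CYP3A of the rat, averaged 9.73 ± 0.62 (SD, n = 10) in GSK932121A livers and 10.06 ± 0.64 (SD, n = 12) in vehicle livers and did not pass (limma adjusted p = 0.543). The probe set for Cyp4a3 and Cyp4a2 averaged 11.57 ± 0.21 (SD, n = 10) in GSK932121A livers and 11.37 ± 0.21 (SD, n = 12) in vehicle livers (limma adjusted p = 0.206).

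Among 11 hepatocyte transcription factors 4 rose and 1 fell, with a median of 0.05. The shares over all genes were 5.31% for rises and 7.05% for falls. Cebpb rose 2.09-fold (limma adjusted p = 6.48e-06), Bcl6, a transcriptional repressor, rose 2.24-fold (limma adjusted p = 0.00012), and Foxa3 rose 1.75-fold (limma adjusted p = 0.000824). Onecut1 rose 1.43-fold (limma adjusted p = 0.0338), and that call was lost without any of 10 arrays, by the Welch test (adjusted p = 0.0669) and by the Wilcoxon test (adjusted p = 0.0925). Foxa2 fell 1.46-fold (limma adjusted p = 0.00443).

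Liver P450s are enriched around the central vein. Of 10 other pericentral genes 1 rose and 2 fell, beside 5.31% and 7.05% of all genes, with a median of -0.04. Gstm3 rose (limma adjusted p = 0.00227), at 5.59 ± 1.74 (SD, n = 10, from 3.47 to 8.68) in GSK932121A livers and 3.5 ± 0.34 (SD, n = 12, from 2.90 to 4.00) in vehicle livers. Its probe set was dim and its size of change varied widely between treated animals, so no exact fold is given. Tbx3 and Axin2 fell 1.66-fold and 1.37-fold (limma adjusted p = 0.000243 and 0.00212). Other genes of the list did not pass, with log2 differences of -0.11 for Lgr5, -0.05 for Rhbg, 0.27 for Oat and 0.40 for Slc1a2. Of the 10 pericentral genes, 6 lay below 0 and 4 above. Of 12 periportal genes 6 rose and 2 fell, beside the same shares of all genes, with a median of 0.24. The largest rise was that of Sds, a serine-degrading enzyme, at 8.63-fold (limma adjusted p = 6.48e-06). Its values ran from 8.35 to 10.45 in GSK932121A livers and from 4.56 to 9.24 in vehicle livers, so the groups overlapped in part. Cdh1 and Ctsc fell 1.27-fold and 1.15-fold (limma adjusted p = 0.00257 and 0.0101).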
